A study of Mus musculus with 12 samples.

Results

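The genes of oxidative phosphorylation were followed in RNA from cells sorted as bone marrow endothelial cells. They were taken by symbol from the annotation: every protein-coding gene whose symbol starts with Nduf, Uqcr, Atp5 or Cox4 to Cox8, the 4 genes Sdha, Sdhb, Sdhc and Sdhd, and the mitochondrial genes starting with mt-Nd, mt-Co, mt-Cytb or mt-Atp. The rule gave 107 of the 55421 genes in the count table, 94 encoded in the nucleus and 13 in mitochondrial DNA (mtDNA). The rule uses no measured value, though it was set with earlier results of these data known. The study profiled 12 libraries in 4 groups of 3, all from mice aged 20 weeks. Control mice (Ctr) were naive C57BL/6J animals. Hypertension (HTN) was produced in C57BL/6J mice by chronic angiotensin II, given for 8 weeks by the study's methods. Atherosclerosis (ApoE) was studied in the Apoe(tm1Unc) knockout strain, which the methods say was kept for 10 weeks on a western diet. Acute myocardial infarction (MI) was studied in C57BL/6J mice at 2 days by the labels and at 4 days by the study's text. The groups thus differ in strain, diet and surgery as well as in disease, and the control mice were naive rather than sham-operated or infused with vehicle. The sort kept TER-119-, CD41-, CD45-, CD31hi, SCA-1+ cells, and each library is identified below by its group and its replicate number, 2, 3 or 4.

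Oxidative phosphorylation is carried out in the inner mitochondrial membrane. Complexes I and II pass electrons from NADH and succinate to ubiquinone, complex III passes them on to cytochrome c, complex IV reduces oxygen, and complex V, the ATP synthase, uses the proton gradient so made. All subunits of complex II come from nuclear genes, whereas complexes I, III, IV and V also hold subunits encoded in mtDNA, which is transcribed as long precursors that are cut into single messenger RNAs. Endothelial cells are known for making much of their ATP by glycolysis.

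Libraries held 17007088 to 25136936 counts. Values are CPM, counts divided by the library total in a scale common to all libraries and adjusted by TMM, and 3 counts, taken as the smallest measured amount, were 0.119 to 0.176 CPM. The targeted gene Apoe was at 7.28 to 14.8 CPM in the ApoE libraries and at 450.5 to 1503 CPM in the other 9. Against the label of the cells, genes that define endothelium were low: Cdh5 was at 2.00 to 4.19 CPM, and 24 endothelial markers summed to 225.8 to 390.2 CPM, none of them at 0. In contrast, 13 neutrophil markers summed to 34200 to 99440 CPM and 15 erythroid markers to 11520 to 47700 CPM, so the values below describe the sorted RNA as a whole. In such bulk RNA, fewer cells of a type and less RNA per cell cannot be told apart. Libraries HTN 4 and ApoE 2 had the lowest summed mtDNA-encoded RNA and MI 2 the highest, followed by ApoE 3, Ctr 2 and MI 4, which lay close together.

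Of the 13 mtDNA genes, 6 had almost no counts, and their sequence is shown because it bears on what could be counted. A region of chromosome 1 of the mouse reference genome (GRCm38) holds a copy of part of mtDNA, annotated as a row of unprocessed pseudogenes on the minus strand. A read that fits both places has no single position. The first 120 bases of mt-Co3, a core subunit of complex IV (chrM:8607-9390, plus strand), and of the pseudogene Gm28437 (chr1:24613189-24613971, minus strand) were the same, as were all 783 bases aligned between them.
mt-Co3: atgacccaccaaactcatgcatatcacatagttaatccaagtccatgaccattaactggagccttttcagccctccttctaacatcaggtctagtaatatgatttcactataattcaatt
Gm28437: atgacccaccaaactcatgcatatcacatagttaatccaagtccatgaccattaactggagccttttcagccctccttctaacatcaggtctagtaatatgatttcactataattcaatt
In mt-Nd3, a core subunit of complex I (chrM:9459-9806, plus strand), and its copy Gm28438 (chr1:24612775-24613119, minus strand) 344 of 345 bases were identical, and the capital letter in the first 120 bases marks the one that is not.
mt-Nd3: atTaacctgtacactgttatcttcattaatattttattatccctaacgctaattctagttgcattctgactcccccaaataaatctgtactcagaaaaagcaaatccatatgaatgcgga
Gm28438: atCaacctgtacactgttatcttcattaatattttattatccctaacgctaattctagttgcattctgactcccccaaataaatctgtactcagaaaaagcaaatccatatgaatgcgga

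No counts in any of the 12 libraries were recorded for mt-Co2, mt-Co3, mt-Nd4l or mt-Atp8. The ATP synthase gene mt-Atp6 had 0 to 2 counts a library and 8 in all, and mt-Nd3 had 0 to 7 and 35 in all. The pseudogenes themselves had few counts: Gm28437 had 22 to 152 a library, Gm10925, which matches mt-Atp6 over 678 of 678 bases, 22 to 152, and Gm28661, which matches mt-Co2 over 681 of 681 bases, 4 to 28. Windows of 50 bases, the read length, were compared between all annotated transcripts. Of the windows of mt-Co2, 0% were found in no other gene, and the share was 0.1% for mt-Co3, 0.5% for mt-Atp6, 1.2% for mt-Nd4l and 2.0% for mt-Nd3. The 7 mtDNA genes with high counts had 37.8% (mt-Nd4), 48.9% (mt-Co1), 91.8% (mt-Nd2), or 92.4% (mt-Nd5) of their windows to themselves, and mt-Nd1, mt-Nd6 and mt-Cytb shared none. For mt-Atp8 the annotation holds no transcript at the copied place, and all its windows were unique among the annotated transcripts. For the 5 genes at 0 to 2.0%, few reads could be placed in one gene alone, so their counts do not measure their RNA. The reason for the absence of counts of mt-Atp8 was not tested. In addition mt-Nd4 and mt-Co1 were counted over part of their length. Among the 94 nuclear genes, 56 were unique in every window and 20 in fewer than 90% of them. The lowest were Atp5g2 with 12.6%, Atp5l with 31.5% and Cox7c with 47.0%, so levels of these 3 genes are uncertain. In addition 13 of the 107 genes share exon bases with another gene on the same strand and 32 with one on the opposite strand.

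**Figure D1:**
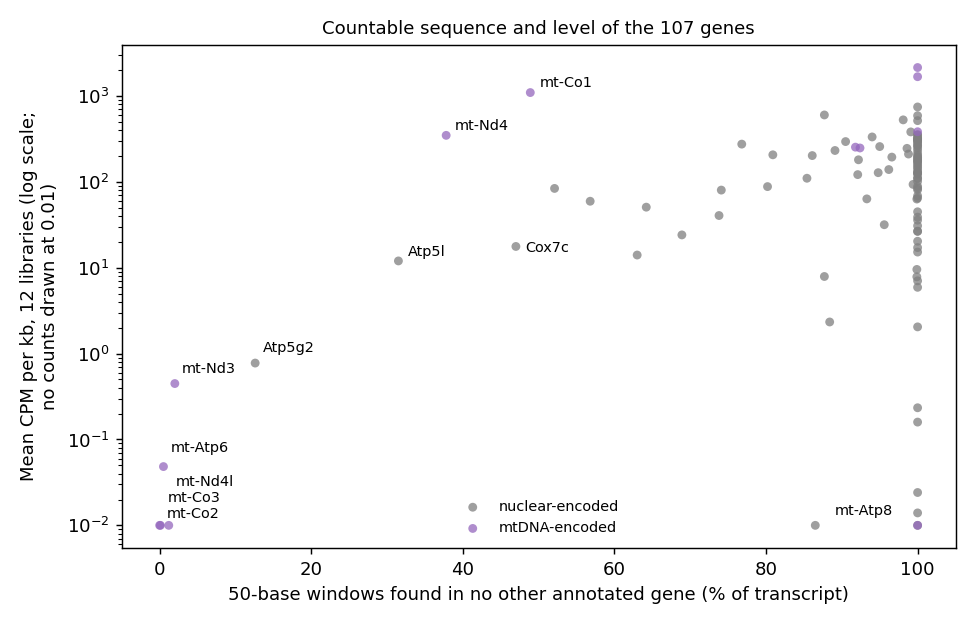
Share of 50-base windows found in no other annotated gene (x axis, percent of the transcript) against mean level over 12 libraries (y axis, CPM per kb of transcript, log scale, genes with no counts drawn at 0.01) for 107 genes, nuclear in grey and mtDNA-encoded in purple. The 5 mtDNA genes at 0 to 2.0% lie at the bottom left, and mt-Nd4 and mt-Co1 keep high levels at 37.8% and 48.9%.

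A filter on low counts kept 15999 genes, and 95 of the 107 genes passed it, 88 nuclear and 7 mtDNA-encoded. The 12 that did not were the 6 mtDNA genes above, Cox4i2, Cox7b2, Cox8b, Cox8c, Ndufa4l2 and a second identifier for Atp5o that reads through to Donson and had 0 counts. In the tested genes, 0.384 to 1.10% of a library's counts fell on the 7 mtDNA genes and 1.15 to 1.53% on the 88 nuclear genes. By kb of transcript, mt-Nd1 (2151 CPM per kb), mt-Cytb (1682) and mt-Co1 (1099) had higher mean levels than any nuclear gene of the 5 complexes. The highest nuclear gene of each complex was Cox4i1 of complex IV (746.9 CPM per kb), Ndufb7 of complex I (591.2), Uqcrc1 of complex III (517.5), Atp5b of complex V (382.6) and Sdhb of complex II (286.9).

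The mtDNA-encoded genes varied more among libraries than the nuclear ones. Their summed level was 9360, 6489 and 5969 CPM in Ctr 2, 3 and 4, then 6176, 5858 and 3732 CPM in HTN, 4429, 9635 and 5915 CPM in ApoE, and 11810, 6375 and 9190 CPM in MI. The control range overlapped that of every disease group, and the lowest and the highest library were HTN 4 and MI 2. For the 88 nuclear genes the sum was 15390, 12560 and 12360 CPM in Ctr, 14090, 13320 and 13570 CPM in HTN, 11860, 14740 and 10850 CPM in ApoE, and 16350, 13990 and 15090 CPM in MI. The ratio of the mtDNA-encoded to the nuclear sum ran from 0.275 in HTN 4 to 0.722 in MI 2, and in HTN it was 0.438, 0.440 and 0.275, below all 3 Ctr libraries at 0.608, 0.517 and 0.483. Among genes at 10 CPM or more, the highest library was a median of 1.79 times the lowest over 8800 tested genes, 1.99 times over 83 nuclear genes, assembly factors included, and 3.48 times over the 7 mtDNA genes.

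**Figure D2:**
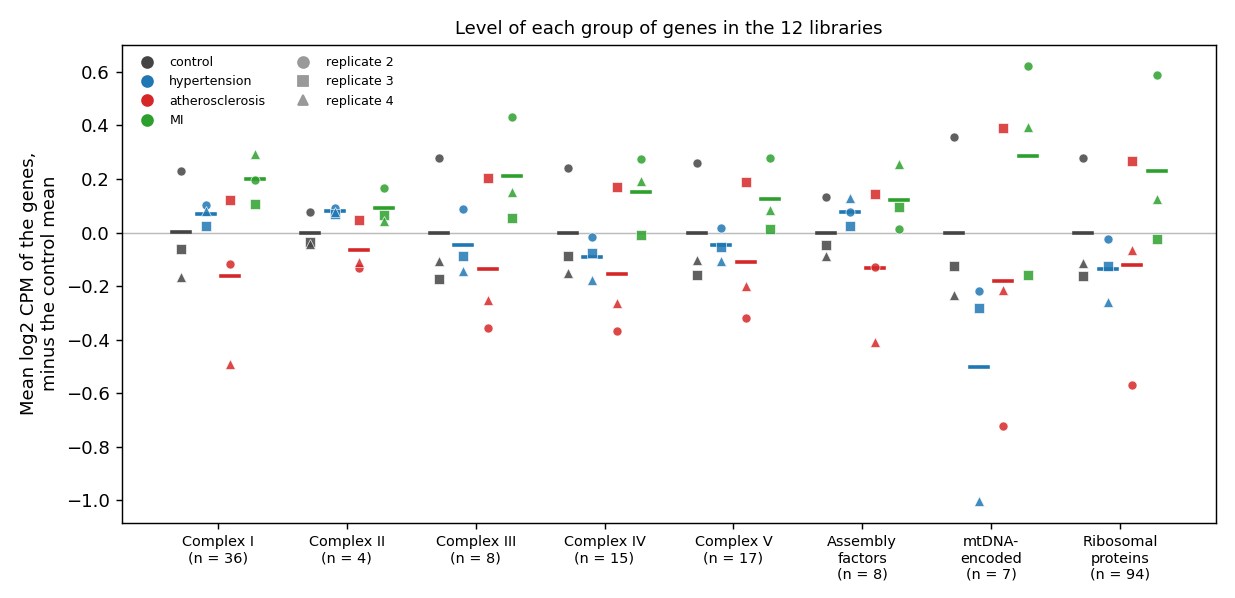
Mean log2 CPM of each gene group minus its control mean (y axis) in 12 libraries, for nuclear genes by complex, complex I assembly factors, mtDNA-encoded genes and 94 ribosomal protein genes (x axis). Colours are groups, symbols are replicate numbers and bars are group means. The mtDNA-encoded genes span 1.62 log2 units, from HTN 4 to MI 2, and complex II spans 0.30.

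Within hypertension no gene of oxidative phosphorylation passed the test. Of 95 genes, 0 were called at an adjusted p under 0.05 by edgeR's quasi-likelihood test, 0 at an unadjusted p under 0.05 (2.08% of all genes were higher and 1.63% lower at that p), and 0 by edgeR's likelihood-ratio test or DESeq2. Over all 15999 genes the same comparison called 0%. The 7 mtDNA genes had log2 fold changes below 0, with a median of -0.51 and a range of -0.62 to -0.25, against a median of 0.01 for the 88 nuclear genes and -0.01 for all genes. In 3 of the 7, mt-Nd2, mt-Nd6 and mt-Cytb, every HTN library was below every Ctr library, which holds for 7.81% of all genes in that direction. Without HTN 4 the mtDNA median was -0.25. Being cut from shared precursors, mtDNA transcripts are not independent of each other.

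The largest mtDNA-encoded gene by level, mt-Nd1, a membrane subunit of complex I, was at 2932, 1775 and 1709 CPM in Ctr and at 1928, 1669 and 922.5 CPM in HTN. One HTN library, HTN 4, was far below the others, and the groups overlapped. Its log2 fold change was -0.51 ± 0.37 (SE) with an adjusted p of 0.951 (edgeR). The cytochrome b gene mt-Cytb, the mtDNA-encoded subunit of complex III, was at 2701, 1856 and 1629 CPM in Ctr and 1596, 1561 and 869.9 CPM in HTN, with a gap between the groups of less than the spread within either. Its log2 fold change was -0.62 ± 0.37 (adjusted p = 0.951). In the third of the abundant genes, mt-Co1, the catalytic core of complex IV, the values were 1944, 1513 and 1383 CPM in Ctr and 1403, 1427 and 1227 CPM in HTN, and the groups overlapped.

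The other complex I genes of mtDNA encode further membrane subunits and followed the same libraries. For mt-Nd2 the values were 362.5, 254.7 and 229.0 CPM in Ctr, 228.9, 222.9 and 141.0 CPM in HTN, 184.5, 347.7 and 237.0 CPM in ApoE, and 366.8, 242.4 and 349.1 CPM in MI. For mt-Nd4 they were 588.2, 487.1 and 436.7 CPM in Ctr, 423.2, 437.3 and 291.4 CPM in HTN, 362.7, 604.6 and 412.5 CPM in ApoE, and 605.1, 453.1 and 668.1 CPM in MI. HTN 4 was the lowest library for both genes, and ApoE 3 and MI 2 were above the median. For mt-Nd5 they were 573.0, 423.0 and 403.8 CPM in Ctr, 430.6, 385.7 and 197.4 CPM in HTN, 290.5, 539.3 and 491.3 CPM in ApoE, and 706.4, 427.9 and 571.4 CPM in MI, and only HTN 3 and HTN 4 of the HTN libraries were below every control.

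Among nuclear genes in hypertension, 45 had a log2 fold change above 0 and 43 below it. In 8 of the 88 every HTN library was above every Ctr library and in 4 below, beside 9.02% and 7.81% of all genes. Ndufc1, an accessory subunit of complex I, was at 142.3, 122.2 and 96.4 CPM in Ctr and 158.9, 155.6 and 286.7 CPM in HTN. No library overlapped, and HTN 4 was the highest of the 3 by a wide margin (log2 fold change 0.74 ± 0.45, adjusted p = 0.951). For complex V the highest log2 fold change was that of Atp5s (0.37 ± 0.23) and the lowest that of Atp5g2 (-0.61 ± 0.49), which is at 1.12 CPM or less in every library and uncertain as above. Atp5e, the epsilon subunit of the ATP synthase, was at 176.2, 129.3 and 139.2 CPM in Ctr and 138.4, 122.3 and 80.4 CPM in HTN, overlapping, with HTN 4 lowest (-0.38 ± 0.30). Uqcrq, a small subunit of complex III, had the highest log2 fold change of that complex (0.50 ± 0.29), and Uqcrb, its neighbour in the same complex, had the lowest (-0.57 ± 0.34, both with an adjusted p of 0.951). For complex IV the highest was Cox7a2l, which joins complexes III and IV into supercomplexes, at 84.8, 94.1 and 73.1 CPM in Ctr and 97.1, 100.6 and 131.0 CPM in HTN, and the lowest was Cox5a at -0.47 ± 0.35.

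**Figure D3:**
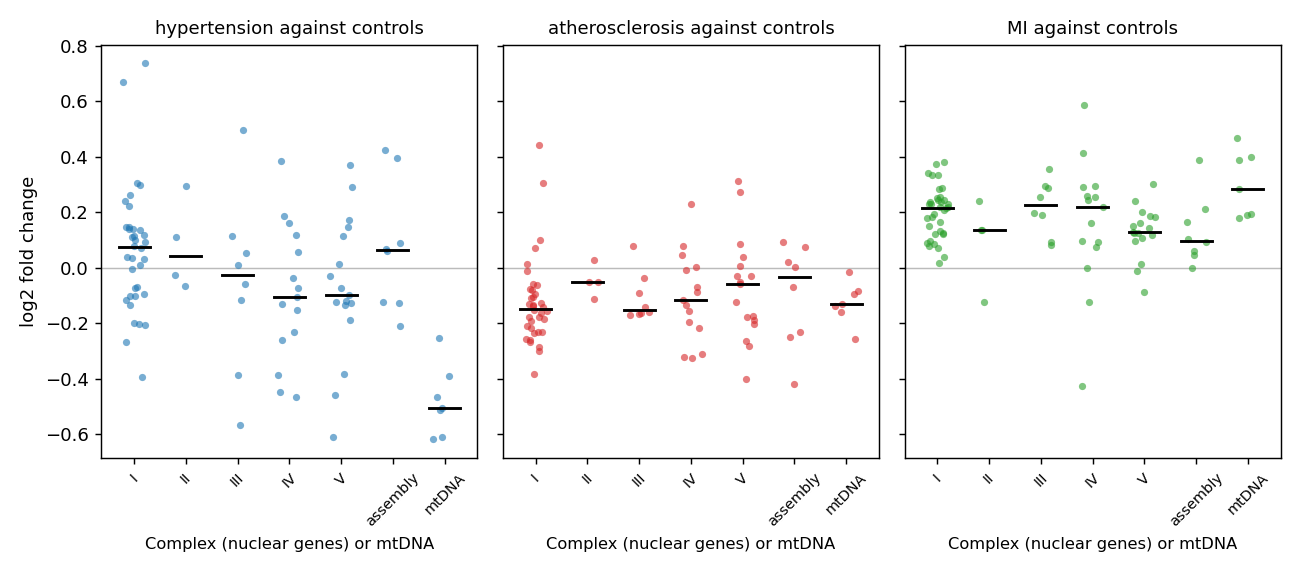
Log2 fold change of each tested gene (points) against controls in hypertension, atherosclerosis and MI (panels), by complex for 88 nuclear genes and for 7 mtDNA-encoded genes (x axis), with black bars for medians. The mtDNA median is -0.51 in hypertension and 0.29 in MI, and no point passed the test.

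In atherosclerosis 0 of 95 genes were called at an adjusted p under 0.05, and 0 at an unadjusted p under 0.05, by edgeR's quasi-likelihood test, while 0.144% of all genes (23 of 15999) were called, and 3.97% were higher and 2% lower at the unadjusted p. The likelihood-ratio test and DESeq2 also called 0 of them. Of the 88 nuclear genes, 68 had a log2 fold change below 0, and their median was -0.13 (all genes 0.01). Complex I held 31 of its 36 nuclear genes below 0 with a median of -0.15, complex III 7 of 8 with -0.15, complex IV 11 of 15 with -0.12 and complex V 12 of 17 with -0.06. In 1 gene, the complex I assembly factor Ndufaf3, every ApoE library was below every Ctr library (4.45% of all genes), and in 0 above (5.06%). It was at 66.2, 62.7 and 60.7 CPM in Ctr and 40.3, 60.3 and 41.2 CPM in ApoE, so that 1 of the 3 ApoE libraries lay next to the controls. The log2 fold change was -0.42 ± 0.20 (unadjusted p = 0.0574, adjusted p = 0.849, edgeR). This gene was named after its values were seen.

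The 3 ApoE libraries differed widely among themselves. Libraries ApoE 2 and ApoE 4 held the lowest of the 12 values for 81 of the 88 nuclear genes (92.0%), 32 in ApoE 2 and 49 in ApoE 4, whereas ApoE 3 held none of the lowest. Over all tested genes at 10 CPM or more, those 2 libraries held the lowest value for 38.9%, and over the 94 ribosomal protein genes for 77.7%. ApoE 4 was lowest for 24 of the 36 genes of complex I and 6 of the 15 of complex IV, and ApoE 2 for 10 and 7 of them. Ndufa3, an accessory subunit of complex I with the lowest log2 fold change of that complex in ApoE, shows the spread: 103.9, 206.1 and 159.7 CPM in ApoE against 247.7, 187.2 and 178.3 CPM in Ctr, a log2 fold change of -0.38 ± 0.22 (adjusted p = 0.862). The other ends of the complexes in ApoE were Ndufc1 (0.44) for complex I, Uqcrq (0.08) and Uqcrfs1 (-0.17) for complex III, Cox6a2 (0.23) and Cox5a (-0.32) for complex IV, and Atp5g2 (0.31) and Atp5e (-0.40) for complex V. Without ApoE 3 the median log2 fold change was -0.31 for the nuclear and -0.42 for the mtDNA genes, and without ApoE 2 the mtDNA median was 0.15 in place of -0.13.

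After MI 0 of 95 genes were called, 0 at an unadjusted p under 0.05 (1.23% of all genes were higher and 1.57% lower), by edgeR's quasi-likelihood test, and 0 by the likelihood-ratio test or DESeq2. All genes together had 0% called. Nearly all genes of the complexes had a log2 fold change above 0: 82 of 88 nuclear genes, with a median of 0.18, and 7 of 7 mtDNA genes, with a median of 0.29, where the median of all genes was 0.00. This held for 36 of 36 nuclear genes of complex I (median 0.22), 8 of 8 of complex III (0.23), 13 of 15 of complex IV (0.22), 15 of 17 of complex V (0.13) and 3 of 4 of complex II (0.14). The cytosolic ribosomal protein genes had 84 of 94 above 0, with a median of 0.27. In 3 nuclear genes, Ndufv1, Ndufv3 and Cox7c, was every MI library above every Ctr library (4.27% of all genes), and in 0 was it below (4.59%), and the 3 were named after their values were seen. All 3 comparisons use the same 3 control libraries, in which Ctr 2 had higher levels than Ctr 3 and Ctr 4, and without Ctr 2 the nuclear median was 0.30 for MI, -0.01 for ApoE and 0.11 for HTN. Without Ctr 4 the nuclear median for MI was 0.10, and the mtDNA median for MI was 0.10 without MI 2 and 0.46 without Ctr 2.

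The smallest unadjusted p after MI belonged to mt-Co1. It was at 1944, 1513 and 1383 CPM in Ctr and 2680, 1562 and 2448 CPM in MI. MI 2 and MI 4 were above the controls and MI 3 was among them. The log2 fold change was 0.47 ± 0.27 (unadjusted p = 0.106, adjusted p = 1, edgeR). Cox4i1, the regulatory subunit 4 of complex IV and its most abundant nuclear gene by length, was at 677.0, 489.8 and 467.2 CPM in Ctr and 982.4, 531.6 and 663.8 CPM in MI. The groups overlapped, and MI 2 was the highest of the 12 libraries (0.41 ± 0.25). The highest and lowest log2 fold changes after MI were those of Ndufc1 (0.38) and Ndufs1 (0.02) in complex I, Uqcrq (0.35) and Uqcrc1 (0.08) in complex III, Cox6b2 (0.59) and Cox6a2 (-0.43) in complex IV, and Atp5g3 (0.30) and Atp5g2 (-0.09) in complex V. Widths of the intervals set what could be seen: the 95% interval of a log2 fold change after MI reached a median of 0.46 to either side for nuclear genes and 0.66 for mtDNA genes (lowest 0.27 and 0.50). These intervals are not adjusted for the number of genes tested, and larger differences than these also missed the adjusted threshold.

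MI against hypertension gave the largest difference in mtDNA-encoded RNA. All 7 genes had an unadjusted p under 0.05 and a log2 fold change above 0, with a median of 0.75 and a range of 0.58 to 1.01, but none passed at an adjusted p under 0.05 (0% of all genes called), where the lowest adjusted p was 0.578. The likelihood-ratio test and DESeq2 also called 0. Across all genes, 4.18% were higher and 4.23% lower at that unadjusted p. In 5 of the 7, every MI library was above every HTN library (9.34% of all genes), the exceptions being mt-Nd1 and mt-Nd5. The same held for 24 of 88 nuclear genes, for 25 of 94 cytosolic ribosomal protein genes and for 8 of 13 neutrophil markers. The median log2 fold change was 0.15 for the nuclear genes and 0.43 for the ribosomal protein genes. Of the 95 genes, 0 were below in every library (10.2%). The gene mt-Nd6, which encodes a membrane subunit of complex I and lies alone on the opposite strand, was at 338.0, 175.8 and 302.4 CPM in MI and 166.4, 155.7 and 82.7 CPM in HTN. The groups did not overlap, but MI 3 lay close to HTN 2 (log2 fold change 1.01 ± 0.39, unadjusted p = 0.0233, adjusted p = 0.581, edgeR). Of the 88 nuclear genes 3 also had an unadjusted p under 0.05, Uqcrh (0.68), Uqcrb (0.82) and Ndufa3 (0.48 on the log2 scale).

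Direct comparisons of MI with atherosclerosis and of atherosclerosis with hypertension also called 0 of 95 genes, beside 0.269% and 0.0625% of all genes. At an unadjusted p under 0.05, 10 nuclear genes were higher in MI than in ApoE (5.34% of all genes were) and 1, Cox6a2, was lower (7.36%). In 8 every MI library was above every ApoE library (6.23%), and in 0 below (7.44%). Of the 10, 8 belong to complex I, and they include the core subunit Ndufv2 and the accessory subunits Ndufb3, Ndufa6 and Ndufa2. Ndufb3 was at 54.8, 51.8 and 65.9 CPM in MI and 39.5, 49.9 and 34.6 CPM in ApoE, with no overlap (log2 fold change 0.48 ± 0.17, unadjusted p = 0.0156, adjusted p = 0.288, edgeR). Between ApoE and HTN, 1 gene was lower at an unadjusted p under 0.05 (2.08% of all genes), Ndufv1, which binds NADH in complex I, at 191.5, 243.4 and 199.0 CPM in ApoE and 300.8, 270.7 and 273.3 CPM in HTN (adjusted p = 0.66, edgeR), and 0 were higher (3.86%). The ApoE libraries were all above the HTN libraries for 2 genes, Cox6a2 and Atp5l (5.81% of all genes), and all below for 3, Ndufa1, Ndufv1 and Sdhd (5.08%). Ndufa1, Ndufa2, Ndufa6, Ndufb3, Ndufv1 and Ndufv2 were named after their values were seen.

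Complex II, which is also an enzyme of the tricarboxylic acid cycle, was the steadiest of the complexes by the median ratio of highest to lowest library. That median was 1.73, close to 1.79 for all tested genes at 10 CPM or more. The ratio was 2.03 for Sdhb, 1.99 for Sdhc and 1.47 for Sdhd. The flavoprotein gene Sdha was at 312.1, 318.0 and 365.0 CPM in Ctr, 348.7, 341.8 and 285.7 CPM in HTN, 276.7, 323.8 and 359.8 CPM in ApoE, and 304.8, 324.1 and 283.5 CPM in MI. Its values overlapped in every pair of groups, and its highest library was 1.32 times its lowest. The iron-sulfur subunit Sdhb was at 310.5, 321.4 and 284.7 CPM in Ctr and 361.5, 342.3 and 419.2 CPM in HTN, without overlap (log2 fold change 0.29 ± 0.20, adjusted p = 0.951, edgeR), then 381.9, 296.4 and 206.2 CPM in ApoE and 291.3, 347.5 and 368.2 CPM in MI. The membrane anchors Sdhc and Sdhd were at 21.3 to 42.2 and 166.6 to 245.5 CPM, and no disease group stood apart from Ctr for either gene. For Sdhc the MI libraries, at 42.2, 29.6 and 31.7 CPM, were above those of HTN at 28.0, 28.4 and 27.2 CPM, and for Sdhd the ApoE libraries, at 176.8, 206.3 and 166.6 CPM, were below those of HTN at 211.5, 210.2 and 220.0 CPM, and both differences missed an unadjusted p of 0.05.

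Subunits of one complex did not follow one pattern across libraries. The accessory subunits of complex I Ndufc1 and Ndufa7, were highest in ApoE 2 (300.7 and 511.2 CPM) and next in HTN 4 (286.7 and 468.3 CPM) and were lowest in ApoE 4 (64.6 and 113.1 CPM). Uqcrq of complex III was highest in HTN 4 at 394.0 CPM, and lowest in ApoE 4 at 130.5 CPM. The opposite held for Cox5a of complex IV, the delta subunit Atp5d of the ATP synthase and Cox8a, which were lowest in ApoE 2 (46.7, 63.2 and 64.5 CPM) and highest in MI 2 (205.2, 300.2 and 214.0 CPM). Core subunits of complex I were steadier: Ndufs1, its largest iron-sulfur subunit, was at 73.5 to 91.2 CPM, a ratio of 1.24 and the lowest of the 83 nuclear genes at 10 CPM or more, and Uqcrc1, a core protein of complex III, at 752.5 to 947.8 CPM (1.26). Of the 88 nuclear genes, 50 (56.8%) were below their own median in both HTN 4 and ApoE 2, where 31.6% of all genes were, and 22 were above it in both, where 31.1% of all genes were. In ApoE 3 and MI 2 56 of them (63.6%) were above their median in both (27.3% of all genes). Ribosomal protein genes gave 74.5% below in HTN 4 and ApoE 2 and 81.9% above in ApoE 3 and MI 2. Genes chosen here to show the spread, other than those at the ends of a complex, were picked after their values were seen.

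Markers of other cells also varied among the libraries, and not all lists went with these levels. In Ctr, HTN, ApoE and MI replicates 2, 3 and 4 in turn, the 13 neutrophil markers summed to 81770, 63740 and 59130, then 54620, 51370 and 37510, then 34200, 74450 and 47820, and then 99440, 78470 and 64680 CPM. The libraries with the lowest neutrophil sum, ApoE 2 and HTN 4, were those with the lowest mtDNA-encoded sum, and MI 2 was highest for both. The listed markers did not all move with their sum. S100a8 was at 1056 CPM in ApoE 2, 1217 in HTN 4 and 6883 in MI 2, but Mpo was at 5146, 4514 and 4420 CPM. In HTN 7 of the 13 neutrophil markers were below every Ctr library (7.81% of all genes) and 12 of 13 had a log2 fold change below 0. The erythroid sum was 11520 CPM in ApoE 2 and 47700 CPM in ApoE 3, and the ribosomal protein sum 6316 CPM in ApoE 2 and 14860 CPM in MI 2. When the log2 share of counts on neutrophil markers was added to the model, the median log2 fold change of the mtDNA genes was 0.12 in HTN in place of -0.51, 0.36 in ApoE in place of -0.13, 0.09 in MI in place of 0.29, and 0.01 in MI against HTN in place of 0.75. The nuclear median was then 0.17 in HTN in place of 0.01, 0.01 in ApoE in place of -0.13, and 0.11 in MI in place of 0.18. That share was measured in the same libraries and differed between the groups, so the part of neutrophil RNA in these differences was not tested. Other lists summed to 3601 to 8454 CPM (11 monocyte genes), 844.1 to 1486 CPM (14 macrophage genes), 374.1 to 1738 CPM (9 megakaryocyte genes) and 23.4 to 39.8 CPM (10 pericyte and smooth muscle genes), and none of these genes was at 0 in all libraries. The 10 B cell markers summed to 222.9 to 1205 CPM, highest in ApoE 2 and HTN 4 and lowest in MI 2. In MI all 10 B cell markers had a log2 fold change below 0 against Ctr. Of them 6 were below every Ctr library (4.59% of all genes) and 8 below every HTN library (10.2%). In ApoE all 14 macrophage markers and all 15 erythroid markers had a log2 fold change above 0, with 1 macrophage marker called by edgeR, and all 13 neutrophil markers had one below 0. The macrophage sum was lowest in MI 4 and the megakaryocyte sum in Ctr 3. For the 24 endothelial markers the sum was lowest in HTN 4 (225.8 CPM) and highest in ApoE 4 (390.2 CPM). Of these 24, 18 had a log2 fold change below 0 in HTN, 12 in ApoE and 11 in MI. The part of any of these cells in the values above was not tested.

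**Figure D4:**
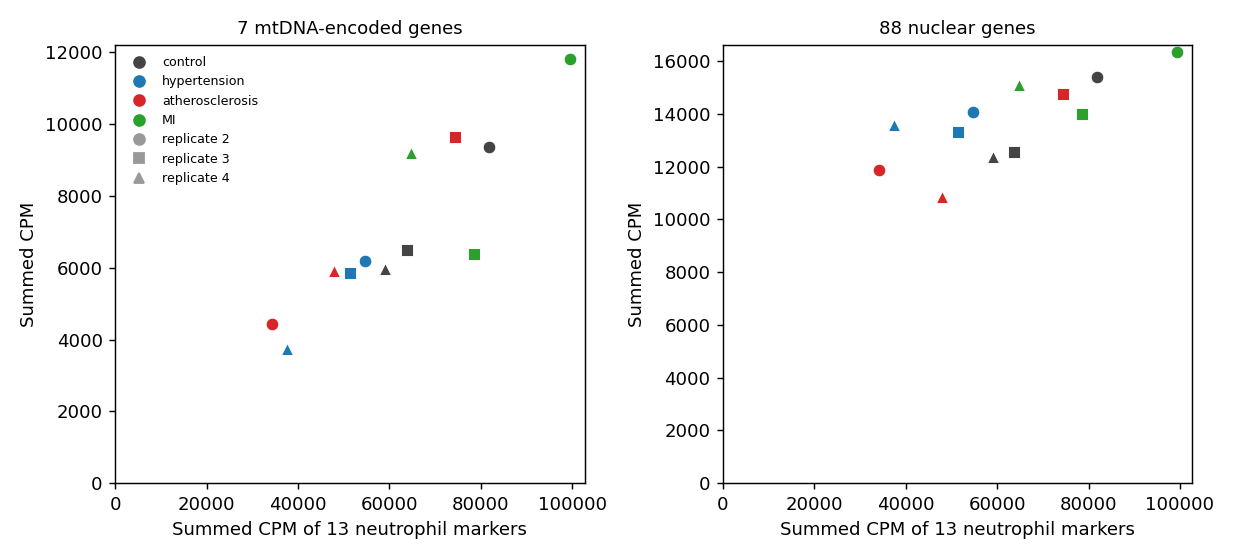
Summed CPM of 7 mtDNA-encoded genes (left) and of 88 nuclear genes (right) on the y axis against the summed CPM of 13 neutrophil markers on the x axis, with 1 point per library. HTN 4 and ApoE 2 lie at the lower left of the mtDNA panel and MI 2 at the upper right.

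For subunits with tissue-specific copies, the ubiquitous gene carried most of the RNA. Mean levels were 746.9 CPM per kb for Cox4i1 and 0.234 for Cox4i2, its lung and hypoxia form. They were 602.8 for Cox6a1 and 20.4 for the heart and muscle form Cox6a2, 249.5 for Cox6b1 and 26.6 for the testis form Cox6b2, and 191.9 for Cox7a2 and 2.05 for the muscle form Cox7a1. Cox8a was at 264.8 CPM per kb, Cox8b at 0.0241 and Cox8c at 0, which allows up to 0.119 to 0.176 CPM in a library. Cox7b was at 93.6 and Cox7b2 at 0.0140, with 2 counts in 1 library. Ndufa4, counted here with complex IV, was at 349.6 and Ndufa4l2 at 0.160. Of the 3 genes for the same c subunit of the ATP synthase, Atp5g3 was at 178.8, Atp5g1 at 2.34 and Atp5g2 at 0.777 CPM per kb, though most of Atp5g2 could not be counted.

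Tissue forms with a mean above 10 CPM were Cox6a2 and Cox6b2. Cox6a2 was at 16.1, 15.9 and 11.3 CPM in Ctr, 13.5, 13.4 and 13.3 CPM in HTN, 20.5, 16.3 and 14.0 CPM in ApoE and 5.63, 12.1 and 14.48 CPM in MI. Its lowest library was MI 2, and MI overlapped every other group (log2 fold change against Ctr -0.43 ± 0.28, adjusted p = 1, against ApoE -0.66 ± 0.28, unadjusted p = 0.0383, adjusted p = 0.364, edgeR). The 10 skeletal muscle genes summed to 34.8 to 114.9 CPM, lowest in MI 2 and highest in HTN 4 and ApoE 2. Of these genes 3 were at 3 counts or fewer in every library, and the myosins Myh1 and Myh4 at no more than 1 count. The 9 markers of plasmacytoid dendritic cells summed to 320.4, 340.6 and 286.5 CPM in Ctr, 270.4, 298.5 and 275.5 CPM in HTN, 405.4, 415.4 and 400.0 CPM in ApoE and 176.6, 256.2 and 268.7 CPM in MI, so that they too were lowest in MI 2. The part of either list in the values of Cox6a2 was not tested. Cox6b2 had the widest range of the 83 nuclear genes at 10 CPM or more, 8.41 times from 4.403 CPM in ApoE 2 to 37.0 CPM in MI 2, and the other 10 libraries lay between 8.56 and 21.6 CPM.

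**Figure D5:**
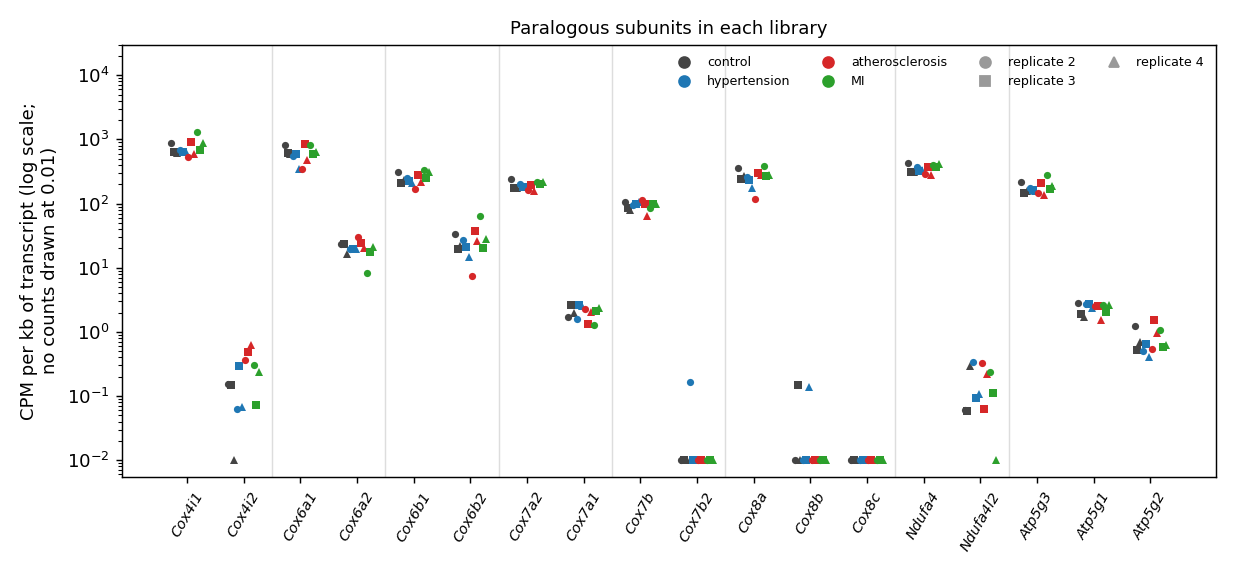
Level of paralogous subunits in each of 12 libraries (y axis, CPM per kb of transcript, log scale, no counts drawn at 0.01), with vertical lines between families, colours for groups and symbols for replicate numbers. The ubiquitous gene of each family lies above its tissue form in every library.

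Promoters of the nuclear genes were searched in RefSeq windows of 250 bases before the start site (GRCm38.p6), which were held for 74 of the 94 genes. The windows are shown because NRF1 is a textbook activator of respiratory genes. Its palindromic motif, the 10 letters in capitals below, searched on both strands, stood in 5 of the 74 genes (6.8%) and in 0.9% of 27025 genes. The 27025 genes were all symbols with a window, not selected by type or level, so they are not matched to the 74 protein-coding genes. Each line gives the motif in capitals with 10 bases on either side, in the direction of the gene.
Ndufaf4 (chr4:24897960-24897989, plus): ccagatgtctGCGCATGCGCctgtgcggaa
Atp5k (chr5:108434430-108434459, minus): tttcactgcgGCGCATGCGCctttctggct
Cox6a1 (chr5:115349101-115349130, minus): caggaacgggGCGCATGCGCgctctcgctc
Atp5g2 (chr15:102671070-102671099, minus): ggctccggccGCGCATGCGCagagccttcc
Ndufa11 (chr17:56717692-56717721, plus): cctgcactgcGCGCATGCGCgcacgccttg
The ETS motif CCGGAAG was found in 18.9% of the 74 genes and 7.8% of all, the CCAAT box in 44.6% and 37.5%, and TATAAA in 8.1% and 14.3%. A match is a description of letters. The 5 genes did not share a pattern: Cox6a1 and Ndufa11 were lowest in ApoE 2, as was Ndufaf4, Atp5k was lowest in ApoE 4 and Atp5g2 in HTN 4.

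Assembly factors for complex I, the 8 Ndufaf genes, were between 4.85 and 78.0 CPM. Ndufaf8 was the highest by length (65.0 CPM per kb) and Ndufaf5 the lowest (5.92). Ndufaf1, at 34.6, 32.0 and 39.0 CPM in Ctr and 48.1, 40.4 and 50.5 CPM in HTN, had the smallest unadjusted p of the 95 genes in HTN, without overlap (log2 fold change 0.40 ± 0.19, unadjusted p = 0.0526, adjusted p = 0.951, edgeR), and was named after its values were seen. Among 40 tested assembly factors outside the rule, 0 were called in any comparison, with medians of 0.04 in HTN, -0.11 in ApoE and 0.03 in MI. The smallest p among them was that of Atpaf1, which assembles the F1 part of the ATP synthase, in HTN (log2 fold change 0.49 ± 0.26, adjusted p = 0.951), of Higd2a in ApoE (-0.38 ± 0.18, adjusted p = 0.849) and of Sdhaf3 in MI (0.34 ± 0.21, adjusted p = 1).

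Neighbouring pathways gave no called gene either. Of 22 regulators of mitochondrial transcription and biogenesis, 11 had a log2 fold change above 0 in HTN, 13 in ApoE and 8 in MI, and the medians were 0.03, 0.04 and -0.08. The coactivator Ppargc1a was at 1.56 ± 0.74 in ApoE (adjusted p = 0.839), the mtDNA helicase Twnk at 0.41 ± 0.20 in HTN (adjusted p = 0.951) and the mitochondrial RNA polymerase Polrmt at -0.35 ± 0.18 in MI (adjusted p = 1). Of 14 tricarboxylic acid cycle enzymes, 6, 7 and 7 were above 0 in HTN, ApoE and MI, with medians of -0.01, -0.01 and 0.00. Idh3a had the smallest p of that list in HTN (0.28 on the log2 scale) and Ogdh in MI (-0.24). The 7 genes for cytochrome c and carriers had medians of -0.09, -0.15 and 0.15, led by Vdac2, Cycs and Slc25a3 (0.15, -0.29 and 0.32). The 25 glycolysis genes had 7 above 0 in HTN and in ApoE and 14 in MI, with medians of -0.12, -0.14 and 0.07. The lactate transporter Slc16a1 in HTN (0.46 ± 0.16, adjusted p = 0.951), Ldhb in ApoE (-0.41 ± 0.18, adjusted p = 0.82) and the kinase Pdk1 in MI (0.46 ± 0.28, adjusted p = 1) led that list. The 8 mitochondrial antioxidant enzymes had medians of 0.06, -0.08 and 0.15, led by Txnrd2, Glrx2 and Prdx5 (0.36, -0.22 and 0.31).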

How the data were processed

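RNA was measured in 12 libraries of sorted bone marrow cells, 3 each in Ctr, HTN, ApoE and MI. The deposited values are raw counts per gene, which the authors made from single-end 50-base reads with STAR (version 2.7.3a per the labels) and its GeneCounts option on GRCm38.p6. GeneCounts keeps reads with a single position. Which of its strand columns was used is not given in the sources used here. Libraries were directional and polyA-selected. Alignment and counting are thus in these values and normalization is not.

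Of 55421 genes, 55240 had an entry in GENCODE M21, which gave symbols, positions and transcripts. Genes were filtered with filterByExpr, scaled by TMM and fitted in edgeR 4.0.16 (R 4.3.3) with 1 coefficient per group over 12 libraries, 8 residual degrees of freedom in all, at a common dispersion of 0.0634. Comparisons used glmQLFTest, two-sided, with Benjamini-Hochberg adjustment over 15999 genes, and a gene was called at an adjusted p under 0.05. SE is that of the log2 fold change. Levels between genes are CPM per kb of the longest principal transcript. Per-library log2 CPM used a prior of 0.5. The steps were tested on simulated counts. Intervals and floors cover counting error or the spread between these libraries only. The labels do not say whether mice of one replicate number were handled together.

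The genes, lists and tests were chosen with earlier results of these data known. Named genes were the mtDNA genes, Sdha to Sdhd, for complexes I, III, IV and V the highest and lowest log2 fold change in each comparison with Ctr, the highest and lowest level by kb of each complex, genes of the paralog families, and the smallest p of each pathway list, of which 1 is not reported here. Others are marked as named after their values were seen. Coa1 and Ahsp, of the lists, were not found by symbol, and Aldoa has 2 identifiers. Alternatives were the likelihood-ratio test, DESeq2 1.42.0, RLE size factors, 2 other filters, only the groups compared, a replicate block, mtDNA or hemoglobin and immunoglobulin genes left out, neutrophil or erythroid share as covariate, an adjusted p under 0.1 and each library left out.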

Additional observations from a re-analysis of the deposited data

How the results depend on the processing

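No gene of oxidative phosphorylation was called against Ctr in HTN, ApoE or MI under any alternative, among them an adjusted p under 0.1, DESeq2, the likelihood-ratio test, no filter and leaving out each library (0 to 0). The 40 tested genes named by rule gave 2731 values under 23 alternatives, 0 of them past the threshold, with the lowest adjusted p at 0.0549, and 172 of opposite sign to the value reported. The median log2 fold change without 1 library ran from -0.06 to 0.11 for nuclear and from -0.68 to -0.25 for mtDNA genes in HTN, from -0.3053 to -0.0101 and from -0.42 to 0.15 in ApoE, and from 0.10 to 0.30 and from 0.10 to 0.46 in MI. The lowest in ApoE was without ApoE 3, and the highest mtDNA value without ApoE 2. With the neutrophil share as a covariate the nuclear median was 0.1703 in HTN, 0.0142 in ApoE and 0.1086 in MI, and the mtDNA median 0.1211 in HTN, 0.3617 in ApoE and 0.0896 in MI, and 0.0142 in MI against HTN. For MI against HTN it ran from 0.57 to 0.96 without 1 library, and this and the next alternatives were chosen after seeing the data. In direct comparisons of disease groups, 4 genes were called in MI against HTN with no filter beyond 1 count (mt-Nd1, mt-Nd6, Uqcrb and Cox5a, log2 fold change 0.73 to 0.98). That setting called 422 of all 36003 genes tested, where the main fit called 0 of 15999. With the erythroid share as a covariate 8 were called in MI against ApoE (Ndufa11, Ndufa3, Uqcrfs1, Cox6b2, Cox5a, Cox8a, Atp5d and Atp5e, 0.53 to 1.01). It called 563 of all 15999 genes, where the main fit called 43. Both settings thus called more genes in the whole table, and the cause was not tested. Every other alternative called 0 genes of oxidative phosphorylation in these comparisons, leaving out each library included (0 to 0).

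Libraries with the same replicate number did not stand out by correlation. With 3 libraries a group, this cannot show whether mice of one number were handled together. Deviations from the group means correlated with r of -0.34 to 0.34 in 18 pairs of the same number, 6 of them over 0.1, and of -0.35 to 0.47 in 36 pairs of other numbers, 12 over 0.1. With the replicate block 0 of the 95 genes of oxidative phosphorylation were called in each of the 6 comparisons. Over all 15999 genes it called 7 in ApoE against Ctr, 22 in MI against ApoE and 7 in ApoE against HTN. The mtDNA median in HTN was then -0.5189. With 3 libraries a group, intervals were wide, as given above, and 6 mtDNA genes had almost no counts.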

Other observations

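The mitochondrial ribosomal RNA genes mt-Rnr1 and mt-Rnr2, which are outside the rule, took 0.309 to 0.810% of the counts of a library although RNA had been polyA-selected. For mt-Rnr2 the values were 6965, 5210 and 4010 CPM in Ctr, 4648, 4860 and 2564 CPM in HTN, 4121, 7891 and 2865 CPM in ApoE, and 6943, 4726 and 7080 CPM in MI, lowest in HTN 4 and highest in ApoE 3. For mt-Rnr1 they were 634.5, 1239 and 304.3 CPM in Ctr, 548.3, 953.6 and 442.0 CPM in HTN, 1257, 727.9 and 222.9 CPM in ApoE, and 763.2, 459.7 and 780.5 CPM in MI, so that ApoE 2 was the highest for mt-Rnr1 and among the lowest 2 for the summed mtDNA messenger RNAs.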
